A study of Mus musculus with 4 samples.

Results

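The genes described here encode the proteins of the cytosolic ribosome. They were taken from the gene count table by symbol: Rpl or Rps followed by a number, by a for the laminin-receptor-like protein, or by p and a digit for the stalk proteins, with the endings a, l, x or l1 allowed. Symbols with -ps and the S6 kinase and Rps19bp genes were left out. The rule found 86 of 55353 symbols, 53 of the large and 33 of the small subunit. In GENCODE 82 of them are protein coding, and Rps4l, Rps12l1, Rpl32l and Rpl6l are annotated as processed pseudogenes. The rule uses no measured values.

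RNA came from E14 cells, a mouse embryonic stem cell line that grows without feeder cells, cultured on gelatin in serum with leukaemia inhibitory factor. Wild-type cells gave 2 libraries (control 1 and 2), and cells edited at Ssrp1 with Cas9 and a guide RNA gave the other 2 (knockout 1 and 2, after their labels). The protein of Ssrp1 joins that of Supt16 in FACT, a histone chaperone active where polymerases pass through nucleosomes. The labels do not say whether the targeted cells were 1 clone or several, nor whether the replicates were separate cultures, so that p-values measure the spread between these libraries, which may be technical. They also describe transfection with an empty pSuper puro vector and puromycin selection of wild-type cells, without saying whether the controls used here received it. RNA was depleted of ribosomal RNA and reverse transcribed from random primers.

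The libraries held between 22611434 and 25344190 counts. The Ssrp1 transcript was at 282 and 305 normalised CPM (counts scaled to a common library total) in the controls and at 305 and 327 in libraries labelled knockout, with a log2 fold change of 0.11 ± 0.06 (SE, n = 2 per group, adjusted p = 0.226). The targeted transcript was not lower, so it did not check the labels. Pou5f1, a defining gene of embryonic stem cells, was at 408 ± 10.4 CPM in the controls and 316 ± 8.53 in libraries labelled knockout (mean ± SD, n = 2). Knockout 1 and 2 stood further apart than the controls did, with a chi-square statistic over genes of 11.5 per degree of freedom against 3.37. That statistic gives most weight to genes with many counts. The SD of the log2 difference between the libraries of a pair was nearly equal over 17482 genes, 0.287 for knockout and 0.266 for control. Over the 85 tested ribosomal protein genes it was 0.204 and 0.148.

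A ribosome is built from ribosomal RNA and a single copy of nearly every ribosomal protein, so cells normally make these proteins in matched amounts. Their mRNAs are short and among the most abundant of a growing cell. They carry a terminal oligopyrimidine (TOP) motif, a cytosine at the start of transcription followed by a run of pyrimidines, through which the kinase mTOR and the RNA-binding protein LARP1 control their translation and stability. Embryonic stem cells divide fast and produce ribosomes actively. Shortage of single ribosomal proteins is known to activate p53, and in humans it can cause Diamond-Blackfan anaemia.

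More ribosomal protein transcripts fell than rose in libraries labelled knockout, and the falls were modest. Of the 86 genes, 85 had enough counts to be tested. Rps12l1 was not tested, with 5 and 8 counts in the controls against 4 and 5 in libraries labelled knockout. 39 fell, which is 45.9% of those tested, beside 17.2% of all genes tested. Only 4 rose, among them Rps26, Rps10 and Rpl39l, which is 4.71% beside 16.5%. The other 42 did not pass the threshold, an adjusted p of 0.05 in edgeR's quasi-likelihood test with Benjamini-Hochberg adjustment over 17482 genes. The median log2 fold change was -0.16 over the 85 genes and 0.00 over all genes (0.003 before rounding). Both libraries labelled knockout lay below both controls for 51 genes (background 33.3%) and above both for 13 (background 33.3%).

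Nearly all falls were less than 1 log2 unit. Among the 39 genes that fell, the log2 fold changes ran from -1.02 to -0.15 with a median of -0.37. The fall was 0.5 log2 units or more for 7 genes, between 0.3 and 0.5 for 22 and smaller for 10. Rpl39 was the 1 gene past -1. The large subunit had 26 genes lower (49.1%) and 1 higher (1.89%) of 53, with a median of -0.22. The small subunit had 13 lower (40.6%) and 3 higher (9.38%) of 32, with a median of -0.15. Over the tested family 45.9% were lower and 4.71% higher, and over all genes tested 17.2% and 16.5%. The difference between the subunits was not tested. Among the 42 genes that did not pass, 26 had a fold change below 0 and 16 above, and for 21 of them the groups overlapped.

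**Figure D1:**
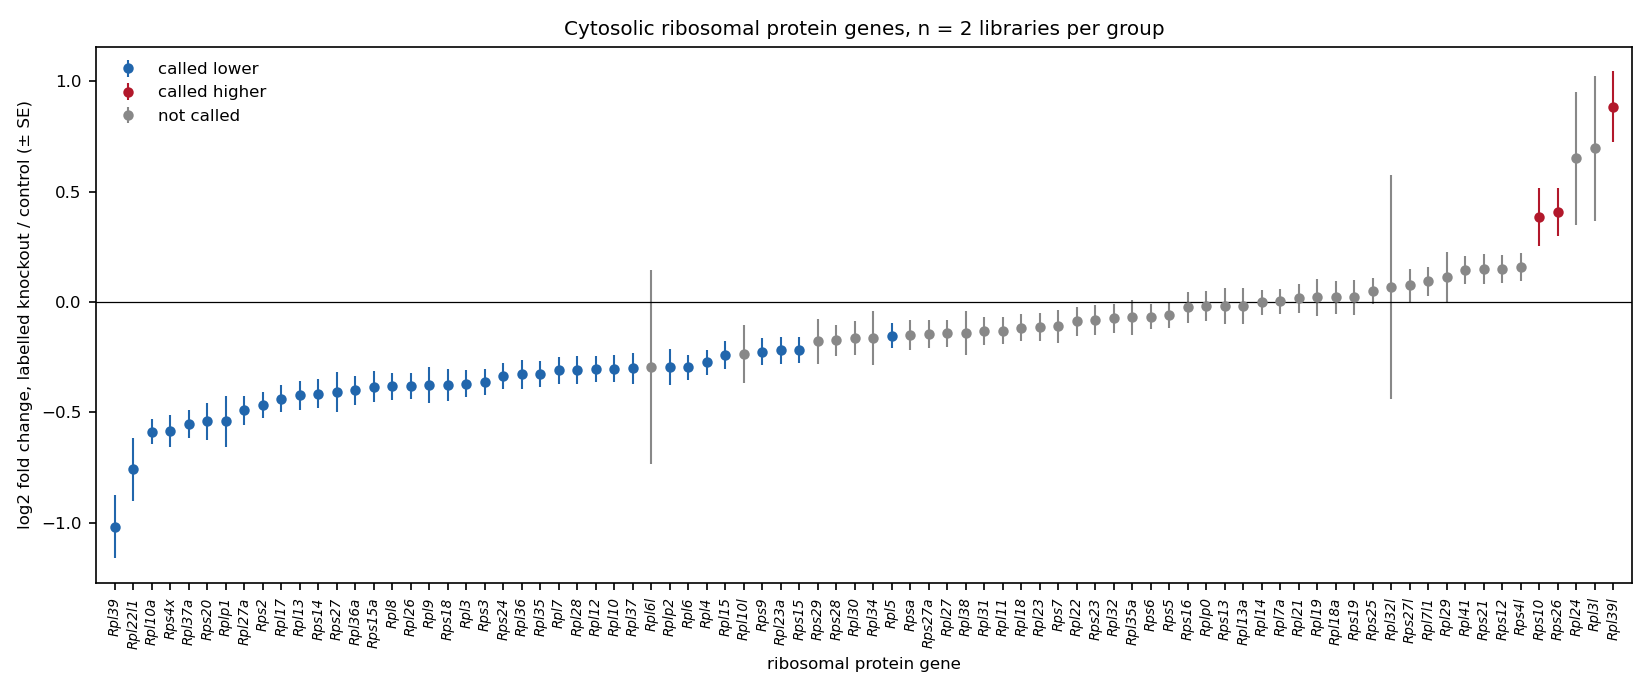
Log2 fold change of 82 of the 85 tested ribosomal protein genes between the libraries labelled knockout and the controls (points, with SE bars, n = 2 per group), ordered by size and coloured by call. The 37 plotted genes called lower run from -1.02 to -0.15, and the 3 plotted genes called higher are among those at the right.

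Together the 86 genes took 4.65% and 4.67% of all counts in the controls and 4.30% and 4.34% in libraries labelled knockout. The means were 4.66% ± 0.0169 and 4.32% ± 0.0267 (SD, n = 2), and the groups did not overlap. An exact permutation test over 2 against 2 libraries gives p = 0.33, the smallest value it can give. The genes Gm26917, Gm42418 and Lars2 were listed as ones that can collect leftover ribosomal RNA reads. When their counts were taken out of the totals, the shares were 5.15% and 5.21% against 4.59% and 4.55%. Those 3 genes held 9.72% and 10.3% of counts in the controls but 6.3% and 4.64% in libraries labelled knockout.

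The scaling of the libraries bears on how many genes are called in each direction. With library size alone, 32 ribosomal protein genes were lower (37.6%, beside 12.7% of all genes) and 9 higher (10.6%, beside 22.2%). Lower calls then made up 78% of the calls among them, against 90.7% with TMM scaling. Over all genes the same change took lower calls from 51% to 36.3%. Such rescaling shifts every gene by the same amount. Without knockout 1 the median log2 fold change of the family was -0.227 (0.001 over all genes). Without knockout 2 it was -0.139 (-0.003 over all genes). In every fit that leaves out a library, the lone library of that group is assumed to vary like the other group, so that p-values of fits with 1 knockout library rest on the spread of the controls. Knockout 2 was below knockout 1 for 63 of the 85 genes, whereas control 2 was below control 1 for 41.

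The gene with the largest fall was Rpl39, which encodes a small basic protein lining the tunnel through which the nascent chain leaves the ribosome. It was at 85.8 and 52.3 CPM in the controls and at 35.7 and 32.3 in libraries labelled knockout. The controls differed more from each other than the libraries labelled knockout did, but the groups did not overlap. The log2 fold change was -1.02 ± 0.14 (SE, adjusted p = 1.59e-05), and -0.63 without control 1 (adjusted p = 1.43e-05). Rpl22l1, a paralog of the large-subunit protein gene Rpl22, was at 25.6 and 26.7 CPM against 18.5 and 12.4. Its log2 fold change was -0.76 ± 0.14 (adjusted p = 3.14e-04), and -0.50 without knockout 2 (adjusted p = 4.94e-04).

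Rpl10a, a protein of the large subunit near the exit site of transfer RNA, gave the smallest adjusted p of the family. Its levels were 929 and 923 CPM in the controls and 603 and 629.7 in libraries labelled knockout, a wide gap beside the spread within either group. The log2 fold change was -0.59 ± 0.06 (adjusted p = 1.76e-07). Rps4x, the X-linked gene of a small-subunit protein, was at 1314 and 1357 CPM against 984 and 798, a log2 fold change of -0.58 ± 0.07 (adjusted p = 4.29e-06). Rpl37a, a zinc-binding protein of the large subunit, was at 331 and 332 CPM against 236 and 217. Its controls were nearly equal, and the log2 fold change was -0.55 ± 0.06 (adjusted p = 1.48e-06).

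Rps20, a protein of the head of the small subunit, was at 305 and 303 CPM in the controls and 235 and 183 in libraries labelled knockout, a log2 fold change of -0.54 ± 0.08 (adjusted p = 4.95e-05). Rps2, which lies near the entry of the mRNA channel, was at 1705 and 1777 CPM against 1302 and 1219.5, with a log2 fold change of -0.47 ± 0.06 (adjusted p = 3.29e-06). The large-subunit genes Rpl27a, Rpl17, Rpl13 and Rpl26 had log2 fold changes of -0.49, -0.44, -0.42 and -0.38. These 6 genes were named for their low adjusted p. Both controls lay above both libraries labelled knockout in each of them, as in all 39 genes called lower. The same held for 33.3% of all genes tested. Knockout 2 was the lowest library for all 6 of them.

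**Figure D2:**
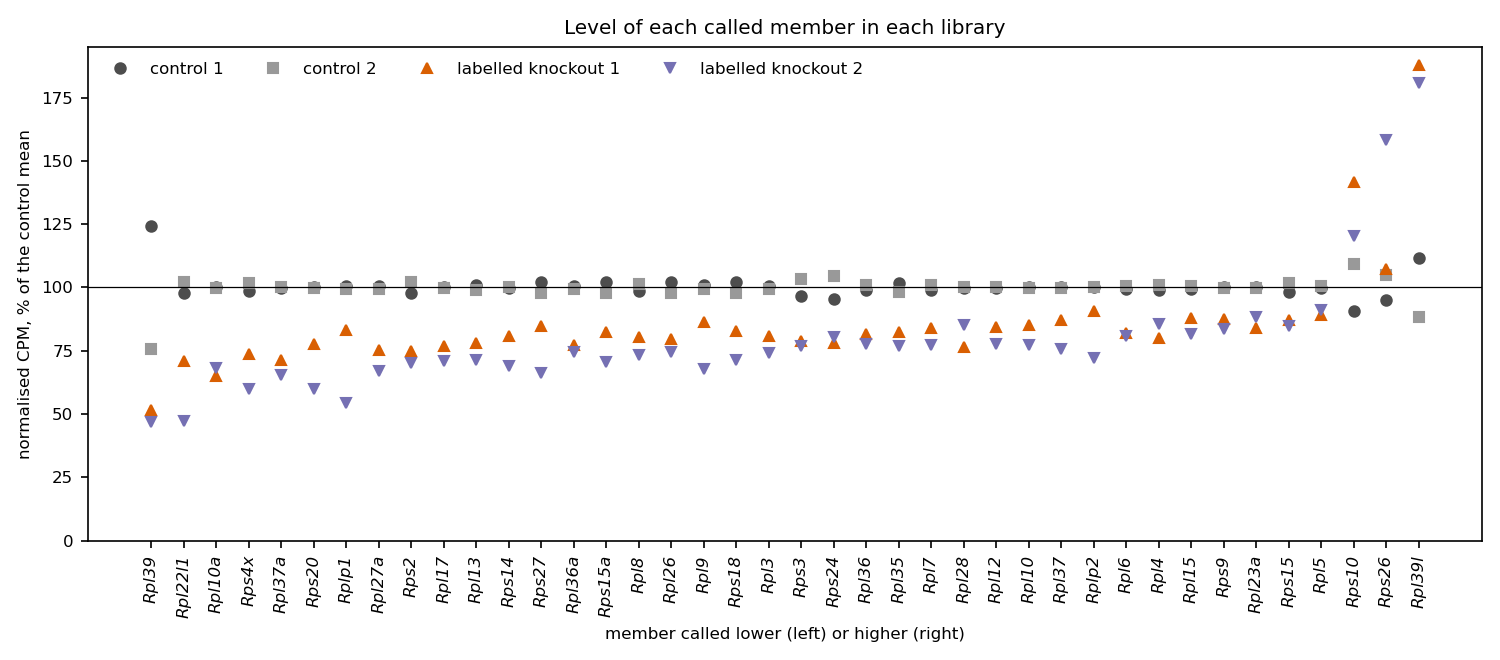
Level of 40 of the 43 called ribosomal protein genes in each library, as a percentage of the mean of the controls (y axis from 0). Points of the 37 plotted genes called lower lie under the controls in both libraries labelled knockout, and knockout 2 is the lower of the pair for 31 of them.

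Rpl39l, the paralog of Rpl39, rose from 7.16 and 5.67 CPM in the controls to 12.1 and 11.6, a log2 fold change of 0.89 ± 0.16 (adjusted p = 2.3e-04). It is a scarce transcript, but the groups stood apart, and it was called higher in all 12 alternative settings.

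The rises of Rps26 and Rps10 rest on fewer libraries. Rps26, which contacts the mRNA at the exit channel, was at 1013 and 1115 CPM in the controls, 1140.2 in knockout 1 and 1683 in knockout 2. Knockout 1 was close to control 2, and knockout 2 stood far above the rest. The log2 fold change was 0.41 ± 0.11 (adjusted p = 0.00563), but 0.10 without knockout 2 (adjusted p = 0.0507) and 0.66 without knockout 1. Rps10, at the head of the small subunit, held 283 and 379 counts in the controls against 468 and 405, a log2 fold change of 0.39 ± 0.13 (adjusted p = 0.0286). It did not pass without control 1 (0.25, adjusted p = 0.31) or without knockout 1 (0.26, adjusted p = 0.148). DESeq2 called neither (adjusted p = 0.319 for Rps26 and 0.079 for Rps10).

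The stalk of the large subunit recruits the translational GTPases and consists of P0, which anchors it to the ribosome, and dimers of P1 and P2. Rplp0 was at 920.2 and 890.3 CPM in the controls and 961 and 826 in libraries labelled knockout, so that the groups overlapped and the log2 fold change was -0.02. Rplp1 was at 257 and 253 CPM against 212 and 139, a log2 fold change of -0.54 ± 0.12 (adjusted p = 0.00103). Rplp2 was at 178.1 and 178.0 against 162 and 128, a log2 fold change of -0.30 ± 0.08 (adjusted p = 0.00812). Thus P1 and P2 were called lower and P0 was not, although the difference between them was not tested. Knockout 2 carried much of both falls. Without it the log2 fold changes were -0.27 for Rplp1 (adjusted p = 1.8e-05) and -0.14 for Rplp2 (adjusted p = 0.0582), and without knockout 1 they were -0.88 and -0.47. Rplp0 was at -0.13 without knockout 1 and at 0.09 without knockout 2, so its direction turned with the library left out. DESeq2 did not call Rplp1 (adjusted p = 0.198).

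Rpl5 and Rpl11 form with 5S ribosomal RNA the particle that can bind and inhibit Mdm2, the ubiquitin ligase of p53. Rpl5 was at 1757 and 1772 CPM in the controls and 1571 and 1605 in libraries labelled knockout. Its log2 fold change of -0.15 ± 0.06 was the smallest called (adjusted p = 0.0366), and it held in 5 of the 12 alternative settings, being lost among others when control 1 was left out (-0.17, adjusted p = 0.206) or control 2 (-0.15, adjusted p = 0.274). Rpl11 was at 397 and 388 CPM against 367 and 351, a log2 fold change of -0.13 (adjusted p = 0.105). It was at -0.16 without knockout 1 (adjusted p = 0.00566) and at -0.10 without knockout 2 (adjusted p = 0.114). For both genes the groups did not overlap, but the shift was small.

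Of 8 proteins at the exit tunnel, 6 had lower transcripts (Rpl4, Rpl17, Rpl23a, Rpl26, Rpl35 and Rpl39) and 0 had higher ones, with a median log2 fold change of -0.30. That is 75% lower, beside 45.9% of the tested ribosomal protein genes and 17.2% of all genes tested. The difference from the rest of the family was not tested. Rpl31 and Rpl19 were at -0.13 and 0.02 and did not pass. Rpl4, whose long loop reaches into the tunnel, was at 2074 and 2120.4 CPM in the controls and 1679 and 1792 in libraries labelled knockout (log2 fold change -0.27 ± 0.06, adjusted p = 7.68e-04). The summed level of the 8 genes was 6174 and 6068 CPM in the controls and 4975 and 5087 in libraries labelled knockout. For 7 of the 8 both libraries labelled knockout were under both controls. The same held for 51 of the 85 tested family genes and for 33.3% of all genes tested.

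Several ribosomal proteins are known for roles of their own. Rpsa, a small-subunit protein also studied as a laminin receptor, was the most abundant member by CPM, at 3398 and 3509 in the controls and 2815 and 3411 in libraries labelled knockout. Knockout 1 was low and knockout 2 overlapped the controls, so the log2 fold change of -0.15 did not pass (adjusted p = 0.0993). Without knockout 2 it was -0.30, and without knockout 1 it was -0.02. Rps3, which also acts as a DNA repair endonuclease, fell by 0.36 ± 0.06 on the log2 scale (adjusted p = 6.35e-05).

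Rpl10, among the last proteins added before the subunits join, was at 1207 and 1206 CPM in the controls and 1027 and 931 in libraries labelled knockout, a log2 fold change of -0.30 ± 0.06 (adjusted p = 5.83e-04). Rps6, the phosphorylation target of the S6 kinases, was at -0.07 and Rpl22 at -0.09. Rps27a, made as a fusion with ubiquitin, was at -0.14 (adjusted p = 0.092), at -0.22 without knockout 1 (adjusted p = 1.27e-04) and at -0.07 without knockout 2 (adjusted p = 0.293). Rpl38, known for its part in translating Hox mRNAs, was at 174 and 193 CPM in the controls, 139 in knockout 1 and 194 in knockout 2. Its log2 fold change was -0.14 with both libraries (adjusted p = 0.306), -0.40 without knockout 2 and 0.08 without knockout 1, so that its direction turned with the library left out. Of these 8 genes with named roles, Rps4x, Rps3 and Rpl10 were called lower and 0 were called higher. That is 37.5% lower, under the 45.9% of the tested ribosomal protein genes, beside 17.2% of all genes tested.

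Of 17 genes mutated in Diamond-Blackfan anaemia, 7 fell (among them Rps24, Rps27, Rpl5, Rpl15, Rpl26 and Rpl35) and 2 rose (Rps10 and Rps26), with a median of -0.15. These are 41.2% and 11.8% of the 17. Of the tested ribosomal protein genes 45.9% were lower and 4.71% higher, and of all genes tested 17.2% and 16.5%. The difference from the rest of the family was not tested. Rps19, the gene most often mutated in that disease, was at 323 and 322 CPM in the controls and 364 and 291 in libraries labelled knockout. The groups overlapped, with a log2 fold change of 0.02. Rps24, of the small-subunit body, fell by 0.34 ± 0.06 on the log2 scale (adjusted p = 2.23e-04). Rps27 fell by 0.41 ± 0.09 (adjusted p = 0.00144), and by 0.24 without knockout 2 (adjusted p = 0.00608).

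Some members kept nearly the same level in every library. Rpl14 was at 519 and 517 CPM in the controls and 517 and 518 in libraries labelled knockout, a log2 fold change of 0.00 ± 0.06. Rpl7a was at 884 and 893 against 895 and 886, also 0.00 ± 0.06. Both were chosen after their values were seen. Compared per kilobase of transcript, the most abundant members in the controls were Rps12 (2135 CPM per kb), Rpl26 (1902), Rpsa (1782), Rps6 (1758) and Rps2 (1591). Only Rpl26 and Rps2 among these 5 were called. Rps12 was at 1212 and 1283 CPM in the controls and 1304 and 1465 in libraries labelled knockout, a log2 fold change of 0.15 ± 0.06 (adjusted p = 0.0692). It was called higher with library size alone (0.23, adjusted p = 0.00814), upper quartile scaling (0.18, adjusted p = 0.0341) and some other settings. It was at 0.23 without knockout 1 (adjusted p = 2.09e-08), 0.06 without knockout 2 (adjusted p = 0.238) and 0.10 without control 1 (adjusted p = 0.495).

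A few ribosomal proteins have paralogs made from separate genes, some known from single tissues: Rpl3l in muscle, and Rpl10l and Rpl39l in the testis. Rpl39 and Rpl39l moved in opposite directions, the first lower and the second higher. They encode 51 residues each and share 85% of bases and 94.1% of residues of their coding sequences. The strand-sense coding sequences from GENCODE M21 are shown because the pair can be told apart by sequence in spite of this likeness. Capitals mark the 23 bases that differ, which change 3 residues.
Rpl39: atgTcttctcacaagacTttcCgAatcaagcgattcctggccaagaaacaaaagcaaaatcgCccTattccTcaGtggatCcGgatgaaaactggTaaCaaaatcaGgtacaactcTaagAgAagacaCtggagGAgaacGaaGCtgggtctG
Rpl39l: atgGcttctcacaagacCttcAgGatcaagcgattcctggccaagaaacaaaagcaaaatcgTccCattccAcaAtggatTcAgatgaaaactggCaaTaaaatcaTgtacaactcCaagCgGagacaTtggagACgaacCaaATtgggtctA

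Rpl39 lies on the minus strand at chrX:37082520-37085402 and Rpl39l on the plus strand at chr16:10170226-10174911 (mm10). Of the stretches of 100 bases in their transcripts, 98.2% and 100% occurred in no other annotated gene. The summed level of Rpl39 and Rpl39l was dominated by Rpl39 in every library. Per kilobase, Rpl39 stood at 113 CPM in the controls and 55.6 in libraries labelled knockout, and Rpl39l at 7.97 and 14.7.

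In the other pairs at most 1 of the genes was called, and differences within pairs were not tested. Rpl22 was at 169 and 173 CPM in the controls and 167 and 155 in libraries labelled knockout and did not pass, whereas Rpl22l1 fell, as given above. They share 67.5% of coding bases. Rpl10l, with 98.6% of its residues in common with Rpl10, was at 20.5 and 16.2 CPM against 16.2 and 14.8, and the log2 fold change of -0.24 did not pass (adjusted p = 0.176). Rpl3l was at 1.36 and 1.51 CPM against 2.27 and 2.39. Its log2 fold change of 0.70 ± 0.33 did not pass (adjusted p = 0.109), while Rpl3 fell by 0.37 ± 0.06 on the log2 scale (adjusted p = 6.73e-05).

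Rps27l, a target of p53 with 96.4% of residues in common with Rps27, was at 123 and 118 CPM in the controls and 136 and 118 in libraries labelled knockout. The log2 fold change was 0.08 (adjusted p = 0.463), 0.17 without knockout 2 (adjusted p = 0.0312) and -0.03 without knockout 1 (adjusted p = 0.787). Rpl7l1 was at 0.10 and Rpl6l at -0.30 (adjusted p = 0.646). Rps4l, the processed copy of Rps4x, was at 123 CPM in both controls and 138 and 136 in libraries labelled knockout. Its log2 fold change of 0.16 ± 0.06 did not pass (adjusted p = 0.0647), though it did with library size alone (0.24, adjusted p = 0.00664), with upper quartile scaling (0.19, adjusted p = 0.0316), with some other settings and without knockout 2 (0.17, adjusted p = 0.0368). Rpl36al, which the symbol rule does not take, encodes the same 106 residues as Rpl36a. It held 27 and 64 counts in the controls against 52 and 47 in libraries labelled knockout. Rpl36a fell by 0.40 ± 0.07 on the log2 scale (adjusted p = 9.3e-05).

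**Figure D3:**
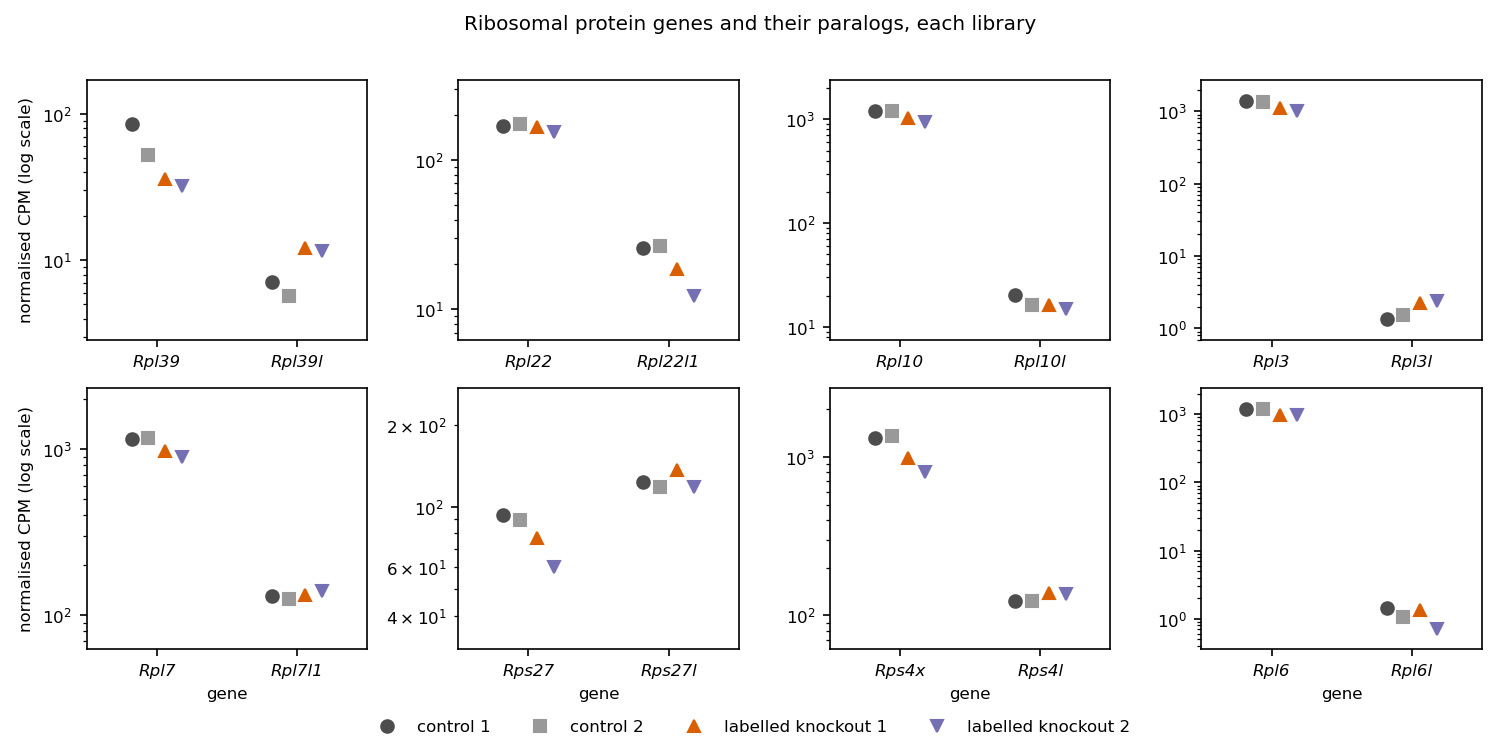
Normalised CPM (log scale) of 8 ribosomal protein genes and their paralogs in each of the 4 libraries. Rpl39 is lower and Rpl39l higher in both libraries labelled knockout, and Rpl22l1 is lower beside a nearly level Rpl22.

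The level of a ribosomal protein gene in such a table depends on how reads were assigned, because the genome holds many processed copies. The share of 100-base stretches of a transcript found in no other gene had a median of 66.6% over the 86 genes. It was under 50% for 31 of them and 100% for 10. Of the 55 genes at 50% or more, 23 fell (41.8%) and 3 rose (5.45%), with a median log2 fold change of -0.15. Of 30 tested genes under 50%, 16 fell (53.3%) and 1 rose (3.33%), with a median of -0.21. Over all genes tested 17.2% fell and 16.5% rose. Genes elsewhere that share such a stretch with a member were lower for 15 (12.4%) and higher for 1 (0.826%) of the 121 tested, with a median of -0.19. Both shares are under those of all genes tested. Of 458 such genes in the table, 121 had enough counts to be tested and 112 had 0 in all 4 libraries. Together they took 0.256% and 0.247% of counts in the controls and 0.235% and 0.211% in libraries labelled knockout.

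For a few members the count itself is doubtful. Exon bases overlapped a gene on the same strand over 71.5% of Rpl24 (Gm28037), 70.8% of Rps10 (a read-through gene of Rps10 and Nudt3) and 59.3% of Rpl13a (Gm45713). Per kilobase these ranked 82, 79 and 74 of 86 in the controls, at 2.73, 22.0 and 58.1 CPM per kb, beside a median of 513 over the family. Rpl24 held 33 and 54 counts in the controls against 65 and 73 in libraries labelled knockout, with a log2 fold change of 0.65 ± 0.30 that did not pass (adjusted p = 0.103). The sources used here do not give how reads in such overlaps were counted, and the rise of Rps10 counts only the reads that were assigned to it. Rpl19 overlaps Gm27597 over 10.7% of its exon bases and ranked 27, at 753 CPM per kb. Sharing of sequence with other genes did not go with a low level in every case. Rpl29, which shares a stretch with 27 genes, was at 27.1 CPM per kb, whereas Rpl7a and Rps2, which share one with 37 and 36, were at 972 and 1591.

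**Figure D4:**
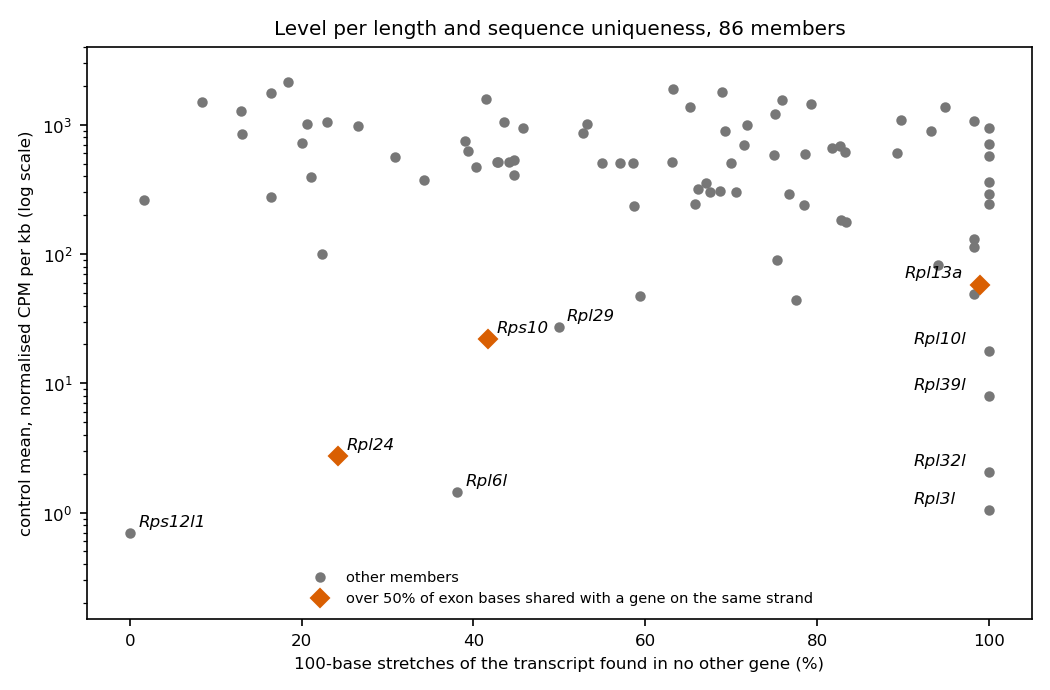
Mean level of the 86 genes in the controls, as normalised CPM per kb of transcript (log scale), against the percentage of 100-base stretches of the transcript found in no other gene. Rpl24, Rps10 and Rpl13a (diamonds), whose exons overlap another gene of the same strand over more than 50% of their bases, lie under most of the family.

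Many ribosomal protein genes carry small nucleolar RNAs in their introns, guides that direct the modification of ribosomal RNA. Of 29 members with an annotated one, such as Rpl4, Rps3 and Rpl17, 17 fell (58.6%) and 1 rose (3.45%), with a median of -0.22. Of 56 members without, 22 fell (39.3%) and 3 rose (5.36%), with a median of -0.14. Over the tested family 45.9% fell, and over all genes tested 17.2% fell and 16.5% rose. The difference between members with and without such an RNA was not tested. The 4 X-linked members all fell (Rpl39, Rps4x, Rpl36a and Rpl10), with a median of -0.49. Of all 538 tested X-linked genes, 90 fell (16.7%) and 127 rose (23.6%), and their median was 0.06.

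Neither the length of the transcript nor its exon number followed the change among the members. Across the 85 genes, which share the same 4 libraries, Pearson's r with the log2 fold change was 0.00 for log2 length (-0.00071 before rounding) and 0.07 for the number of exons. For the level per kilobase in the controls r was -0.39 and Spearman's rho was -0.24, a relation that includes the scarce Rpl39l, Rpl24 and Rpl3l among the higher values. Among 781 other protein-coding genes with transcripts under 1 kb, 9.99% were lower and 18.7% higher, with a median of 0.09. Of the 41 of these at 100 CPM or more, 22% were lower and 39% higher, beside 17.2% and 16.5% of all genes tested. Their median was 0.12, above 0 where that of the ribosomal protein genes was below.

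The start of transcription was examined because the TOP motif lies there. RefSeq promoters (GRCm38.p6) were found for 63 members, in 75 entries. Within 20 bases on either side of the start, 42.7% of these entries held a run of 8 or more pyrimidines, against 16% of all 32851 promoters. The start base was C in 29.3% against 16.3%. The sequences below run from 40 bases before the start to 20 bases from it, in the sense of the gene, and capitals mark the longest pyrimidine run within 20 bases of the start, or the nearest to it where runs tie, as in Rpl39. They show 4 genes with large falls, a pair of level genes and 2 genes that rose.
Rpl39, chrX:37085203-37085262, minus strand: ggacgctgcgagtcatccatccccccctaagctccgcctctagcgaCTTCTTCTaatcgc
Rpl10a, chr17:28328431-28328490, plus strand: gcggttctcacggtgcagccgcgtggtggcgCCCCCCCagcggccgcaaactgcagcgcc
Rps4x, chrX:102189372-102189431, minus strand: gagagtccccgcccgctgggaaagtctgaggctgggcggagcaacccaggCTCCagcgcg
Rpl37a, chr1:72711220-72711279, plus strand: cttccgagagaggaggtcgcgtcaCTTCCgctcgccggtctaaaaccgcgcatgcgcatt
Rpl14, chr9:120571477-120571536, plus strand: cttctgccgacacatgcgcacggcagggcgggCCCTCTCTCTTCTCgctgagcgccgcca
Rpl7a, chr2:26910767-26910826, plus strand: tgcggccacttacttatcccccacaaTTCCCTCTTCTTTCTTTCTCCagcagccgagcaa
Rps26, chr10:128626487-128626546, minus strand: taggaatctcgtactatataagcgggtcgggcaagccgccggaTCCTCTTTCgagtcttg
Rpl39l, chr16:10170188-10170247, plus strand: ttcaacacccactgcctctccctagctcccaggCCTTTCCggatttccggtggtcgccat

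Among the genes shown, the runs are 21 bases in Rpl7a, 14 in Rpl14, 8 in Rpl39 and 7, 4 and 5 in Rpl10a, Rps4x and Rpl37a. Other genes that fell had longer runs, such as Rpl27a with 20, Rpl35 with 18 and Rpl22l1 with 10. Over the family the longest run had a median of 8.5 bases among genes that fell and 7 among those that did not pass. A run of 8 or more was found for 15 of 28 genes that fell, 14 of 32 that did not pass and 2 of 3 that rose. The annotated starts need not be those used in these cells, and a match is a description of letters only. In the 300-base windows, searched on both strands, GCCATCTT was in 10.7% of member entries against 2.75% of all promoters. ACTTCCGG was in 16% against 3.89%, GGGCGG in 58.7% against 35.7% and TATAAA in 10.7% against 13.6%. None of these letters was tested against the fold changes.

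Ribosomal proteins whose symbols the rule does not take moved with the family for 2 of 4 genes. Rack1, a scaffold on the head of the small subunit, was at 1196 and 1213 CPM in the controls and at 996 in both libraries labelled knockout (log2 fold change -0.27 ± 0.06, adjusted p = 7.13e-04). Rps3a1, at the small-subunit platform, was at 119.9 in both controls and 97.7 and 108 in libraries labelled knockout (-0.22 ± 0.07, adjusted p = 0.0175). Fau, the gene of a small-subunit protein made as a fusion, was at -0.01 and did not pass.

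Of 16 other genes with TOP mRNAs, 5 fell (31.2%, beside 17.2% of all genes) and 3 rose (18.8%, beside 16.5%), with a median of 0.03. Their summed level, in which Eef1a1 weighs most, was 28376 and 28306 CPM in the controls against 25800 and 25976 in libraries labelled knockout. Eef1a1, the factor that delivers aminoacyl-transfer RNA, was at 11691 and 11680 CPM in the controls and 8979 and 9028 in libraries labelled knockout, a log2 fold change of -0.38 ± 0.05 (adjusted p = 4.98e-06). Eif4b, a cofactor of the helicase eIF4A, fell by 0.49 ± 0.06 on the log2 scale (adjusted p = 1.37e-06), and Nap1l1, a histone chaperone, rose by 0.64 ± 0.06 (adjusted p = 4.04e-08).

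Among genes for making and loading ribosomes, more rose than fell. Of 36 initiation factors, 14 rose (38.9%, beside 16.5% of all genes) and 4 fell (11.1%, beside 17.2%), with a median of 0.14 (0.135 before rounding). Eif2s2, a subunit of eIF2, was at 0.72 ± 0.06 (adjusted p = 2.44e-08) and Eif4g1, the scaffold of the cap-binding complex, at 0.50 ± 0.06 (adjusted p = 1.81e-06). Of 50 ribosome biogenesis genes, 19 rose (38%) and 3 fell (6%), with a median of 0.11. Those that rose include Bop1, needed for large-subunit maturation (0.63 ± 0.08, adjusted p = 5.52e-06), Taf1d of the RNA polymerase I machinery (0.57) and Utp4 of the small-subunit processome (0.56). The mitochondrial ribosome had 11 of 78 genes higher (14.1%, under the 16.5% of all genes) and 3 lower (3.85%), with a median of 0.07. Of these, Mrpl34, Mrpl12 and Mrpl13 rose by 0.59, 0.43 and 0.42. These lists compare the same 4 libraries as the ribosomal protein genes do.

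Among 17 genes known to act on ribosomal protein genes or their mRNAs, 5 rose (29.4%, beside 16.5% of all genes). Only 2 fell (11.8%, under the 17.2% of all genes), and the median was 0.10. Myc, a transcription factor that drives ribosome production, was at 7.38 and 7.34 CPM in the controls and 12.7 and 14.2 in libraries labelled knockout (log2 fold change 0.87 ± 0.15, adjusted p = 1.03e-04). Its partner Max rose by 0.47 ± 0.08 (adjusted p = 1.94e-04) and Yy1 by 0.38 ± 0.07 (adjusted p = 2.15e-04). Larp1, which binds TOP mRNAs, rose by 0.20 (adjusted p = 0.0201), while Mtor, at -0.16, did not pass (adjusted p = 0.0776). Tsc1 and Tsc2, inhibitors upstream of mTOR, fell by 0.27 and 0.21 on the log2 scale (adjusted p = 0.00815 and 0.0236).

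**Figure D5:**
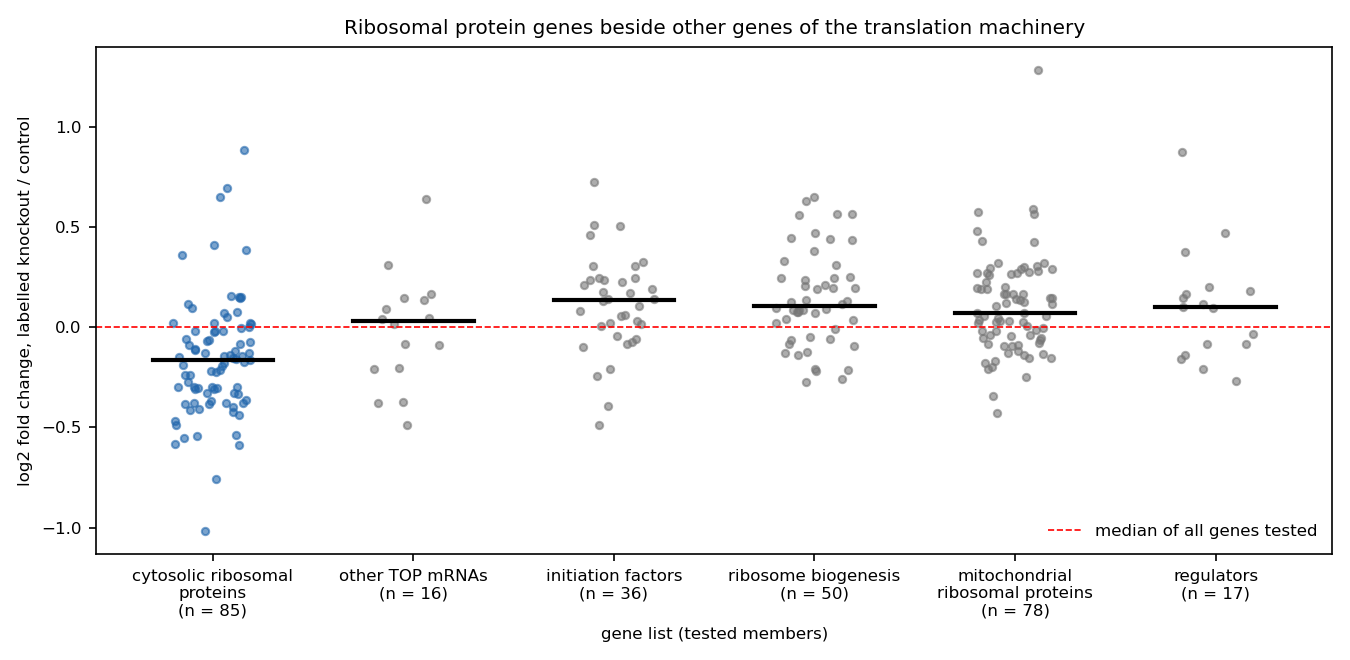
Log2 fold change of each tested gene in 6 lists (points), with the median of each list (black bar) and of all genes tested (dashed line). The cytosolic ribosomal proteins have a median of -0.16, and the initiation factors, ribosome biogenesis genes and mitochondrial ribosomal proteins have medians of 0.14, 0.11 and 0.07.

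Markers of cell states moved between the groups as well. Of 10 embryonic stem cell genes, 7 fell (70%, beside 17.2% of all genes tested) and 2 rose (20%, beside 16.5%). Their summed level was 4962 and 5127 CPM in the controls against 4004 and 3936 in libraries labelled knockout. All 12 tested genes of the 2-cell-like state rose. None held more than 9 counts in a control, under the filter's minimum of 10, so a fall could hardly have been called. Their share cannot therefore be compared with the 16.5% of all genes tested. The 14 listed summed to 0.906 and 0.286 CPM in the controls and 80.9 and 82.5 in libraries labelled knockout. Zscan4b, Duxf3, Tcstv1, Tcstv3, Tdpoz3, Tdpoz4, Usp17lc and Zfp352 were at 0 in both controls, and of these Duxf3 and Tcstv1 were not tested. Of 13 tested primitive endoderm genes 10 rose (76.9%, beside 16.5%). Over the 14 listed, sums went from 358 and 352 CPM in the controls to 495 in both libraries labelled knockout. Of 6 tested neural genes 3 fell (50%, beside 17.2%) and 1 rose (16.7%, beside 16.5%). Over the 8 listed, sums were 159 and 166 CPM against 88.6 and 92.7. Fibroblast and feeder genes summed to between 33.1 and 42.3 CPM in all 4 libraries, with Dcn, Lum and Postn at 0 throughout. Mitochondrially encoded genes took 1.34% and 1.26% of counts in the controls and 1.48% and 1.81% in libraries labelled knockout. The part of these differences in the levels of ribosomal protein genes was not tested, and in such bulk samples a change in the cells present cannot be told apart from a change in RNA per cell.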

How the data were processed

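The values are unnormalised whole-number counts, 1 row per gene symbol, which the authors made with cutadapt, HISAT2 and featureCounts on mm10, per the submitters' processing notes. Not given in the sources used here are versions, annotation release, strand setting and the handling of multiply mapped reads. The table's columns write OK where the sample titles write KO, and were matched on gene, role and number. Columns left unmapped numbered 0.

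The filter filterByExpr of edgeR 4.0.16 (R 4.3.3; minimum count 10, minimum total 15) left 17482 genes. Libraries were scaled by TMM and compared by the quasi-likelihood F test (2-sided, without covariates, 2 residual degrees of freedom). The p-values were adjusted by Benjamini-Hochberg across these genes, and the threshold was 0.05. CPM are TMM-normalised. SE is the absolute log2 fold change over the root of F. CPM per kb use the principal transcript of GENCODE M21, and uniqueness compares its 100-base stretches with all annotated transcripts on both strands. Coding sequences were aligned with Biopython 1.88. DESeq2 1.42.0 was an alternative.

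The genes and lists were chosen with earlier results of these data known. Named genes are the paralogs, the stalk, 5S RNP and role lists, the 10 lowest adjusted p and the 10 largest falls among genes called lower, all called higher, and the 5 most abundant per kb. Of other lists, the 3 genes with the smallest adjusted p are named, or the 2 most abundant where none passed; genes named beyond this were chosen after their values were seen. In simulated data with 17482 genes for knockout against control, edgeR recovered 27 of 50 genes changed 1.5-fold, 31 of 50 at 2-fold, 43 of 50 at 4-fold and 48 of 50 at 8-fold, with 5 false calls. The deviations of same-numbered libraries had a correlation of 0.01 over all genes and 0.17 over the ribosomal protein genes; with 2 numbers and no label for a shared culture, they were not used to pair libraries. Some genes are not reported here by name or in plots that name genes; they remain in the counts.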

Additional observations from a re-analysis of the deposited data

How the results depend on the processing

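There were 12 alternatives, which change the scaling, the filter, the test or the libraries. Among those that keep all 4 libraries, between 32 and 40 ribosomal protein genes were lower. Their share ran from 37.6% to 46.9%, beside 10.9% to 22% of all genes. Of the 39 genes called lower, 29 passed in all 12, and so did 2 of the 4 called higher, Rpl39l among them. Lower calls lost at least once included Rpl9, Rpl5, Rps9, Rplp2, Rps15, Rpl15, Rplp1 and Rpl23a. The number higher was 9 with library size alone (10.6%, beside 22.2% of all genes) and 8 with upper quartile scaling (9.41%, beside 18.2%). It was 2 with DESeq2 (2.35%, beside 12.7%) and 7 with a filter at 5 CPM in 2 libraries (8.64%, beside 21.1%). In each of these settings the share of the family was under that of all genes. With library size alone the median was -0.081. With the 55 genes at least 50% unique, an alternative chosen after seeing the data, 23 were lower (41.8%, beside 17.2% of all genes). Without the paralogs 38 of 77 were lower (49.4%) and 3 higher (3.9%, beside 16.5% of all genes). The share of counts differed by -0.34 percentage points (-0.61 without the ribosomal-RNA-like genes). Leaving out 1 library at a time gave medians from -0.23 to -0.14 and share differences from -0.36 to -0.32. Over 68 genes chosen by the rule for named genes, 768 values kept their side of the threshold, 21 came to pass it, 23 no longer did, and 0 called values changed sign. With the replicate block 39 were lower (45.9%, beside 18.4% of all genes) and 4 higher (4.71%, beside 17.6%), with a median of -0.17. In that fit Rpl5 was not called (adjusted p = 0.0696). The labels do not say that equal numbers share a culture, and the deviations of same-numbered libraries had a correlation of 0.01 over all genes and 0.17 over the ribosomal protein genes. The smallest change in the simulations above was 1.5-fold, and most falls of ribosomal protein genes were smaller. The simulations covered 17482 genes, whereas 80 of the 86 family genes had at least 10 CPM in all 4 libraries. The recovery given above is therefore not that of this family. How many changes in this family, small or larger, 2 libraries a group can miss was not tested.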
